A study of Homo sapiens with 12 samples.

Results

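Baseline gene expression of A-204 cells, a human soft tissue sarcoma line labelled rhabdomyosarcoma, was set against that of 2 other sarcoma lines. The arrays without taurolidine were used, 6 of the 12 in the series. They comprised 2 arrays of A-204, 1 untreated and 1 given TRAIL at 50 ng/ml for 6 h, and the same pair for SK-LMS-1, labelled leiomyosarcoma, and for VA-ES-BJ, labelled epithelioid sarcoma. TRAIL is a ligand of death receptors. The study itself asked how these lines respond to TRAIL, to taurolidine (250 µmol/l), an antimicrobial taurine derivative, and to both agents. The other 6 arrays, which carry taurolidine, were kept apart and serve below as arrays that played no part in choosing genes. All 3 lines were grown in the same serum-containing medium. Each label is represented by 1 line, so every difference below is one between these lines, not between tumour types.

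Rhabdomyosarcoma cells are defined by a skeletal muscle programme headed by the transcription factors MYOD1 and MYOG, and leiomyosarcoma cells by contractile genes of smooth muscle. Epithelioid sarcoma and malignant rhabdoid tumours typically lose SMARCB1, a core subunit of the SWI/SNF chromatin remodelling complex. Outside these labels A-204 is also known as a malignant rhabdoid tumour line, and rhabdoid tumours are known for expressing epithelial, neural and mesenchymal genes side by side.

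The deposited values are MAS5 signals, a linear intensity without detection calls. The 2 arrays of a line correlated at r = 0.978 to 0.983 across genes, and arrays of different lines at 0.77 to 0.80, on the log2 scale. Array medians lay between 128.6 and 149.5. A gene is called dim below where its signal on both A-204 arrays was under the median of the 6 arrays, 138.2. For GAPDH, signal near the 3′ end over signal near the 5′ end, which shows RNA breakage, came to 0.92 and 0.93 for A-204 and to 0.93 to 1.03 for the other lines. Nothing in the labels tells of separate cultures, so the spread behind each p-value is that of these arrays and may be technical.

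Of 13879 genes tested, 3233 (23.3%) were higher and 2938 (21.2%) lower in A-204 than in SK-LMS-1. Against VA-ES-BJ, 3380 (24.4%) were higher and 2762 (19.9%) lower (limma, Benjamini-Hochberg adjusted p under 0.05). The comparisons share the A-204 arrays. In both at once, 1625 genes (11.7%) were higher in A-204 and 1275 (9.19%) were lower. These 2 shares are the background for the counts of every list below. Genes that also differed by at least 4-fold from both lines numbered 473 higher (3.41%) and 237 lower (1.71%), and these are the genes that set A-204 apart here. The higher genes were 173 without the A-204 TRAIL array and 210 without the untreated one, and with the added constant at the array median the sets held 274 higher and 123 lower genes. The size given for a gene is the smaller of its differences from SK-LMS-1 and VA-ES-BJ, on the scale of log2(signal + 11.62), which understates differences of dim genes. Errors are standard errors of the model.

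**Figure D1:**
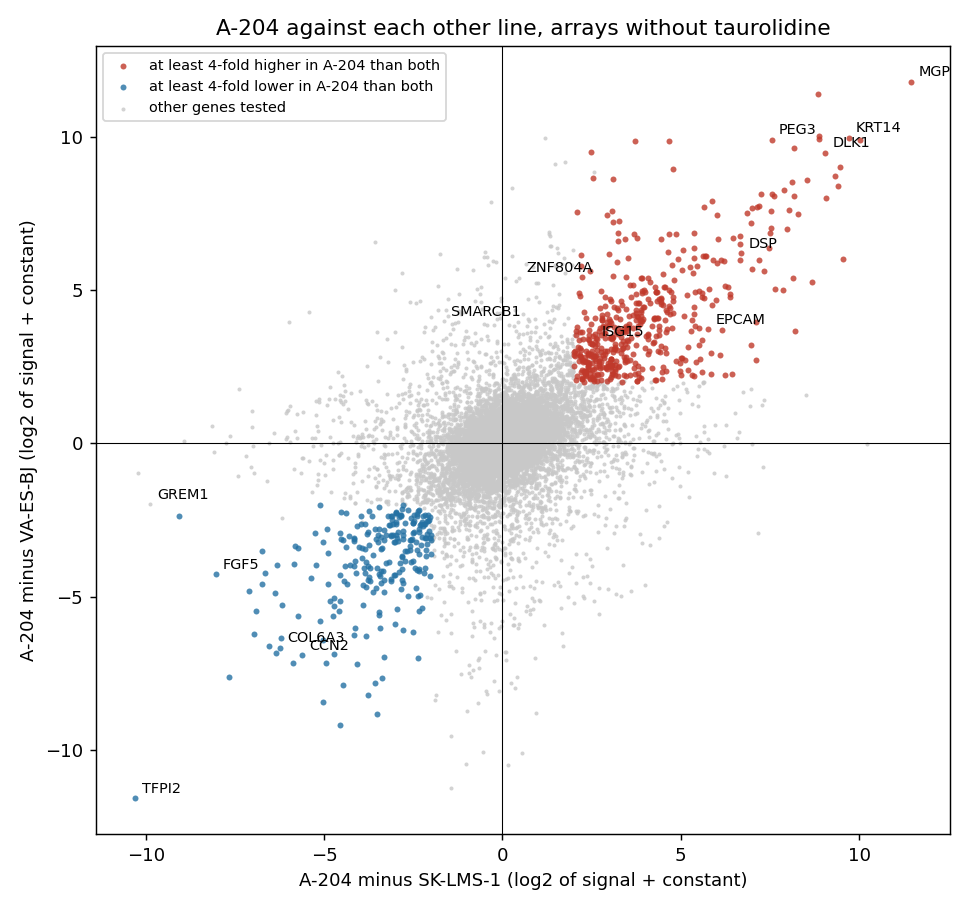
Each point is a gene, with its difference between A-204 and SK-LMS-1 on the horizontal axis and between A-204 and VA-ES-BJ on the vertical axis, both in log2 units. Red points are the 473 genes at least 4-fold higher in A-204 than in both lines, blue points the 237 lower ones and grey points the other genes tested. MGP lies farthest to the upper right and TFPI2 farthest to the lower left.

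Among the 473 higher genes, 126 were at least 16-fold and 40 at least 64-fold higher than in both lines, with a median size of 3.08. All 4 arrays of the other lines were under the array median for 268 of them. These 268 passed the filter, over the median on at least 2 arrays, through the A-204 arrays alone. They thus had to be higher, and the list counts below include such genes. Among the 237 lower genes, 40 were at least 16-fold and 7 at least 64-fold lower, with a median size of -2.94, and 119 were dim in A-204. Both A-204 arrays lay above all 4 others for each of the 473 and below them for each of the 237, as the choice of genes nearly ensures. Over all genes tested, 3412 had both A-204 arrays above the other 4 and 2621 had both below. The nearest genes to the 4-fold limit were MBP at 2.01 inside and GBP1 just outside it on the higher side, PCDHB4 inside and EFCAB13-DT, at -1.99, outside it on the lower side.

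The A-204 arrays with and without TRAIL are 1 array each, so their difference has no replicate check. Genes were called from these same arrays, so the choice favoured genes on which they differ little. Of all 13879 genes tested, 588 differed between these arrays by over 2-fold. Between the TRAIL and the untreated A-204 array, 2 of the 473 higher genes differed by over 2-fold, B3GNT7 and BMP4, with a median absolute log2 difference of 0.13. Of the 237 lower genes 39 did, and 35 of these 39 were dim. In a bulk RNA sample a lower level in every cell and a smaller share of expressing cells cannot be told apart.

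The largest difference was that of MGP, which encodes matrix Gla protein, an inhibitor of calcification made by cartilage and vessel wall. Its signals (untreated array first, TRAIL array second, here and below) were 53590 and 51288 in A-204, against 10.6 and 3.84 in SK-LMS-1 and 3.1 and 3.21 in VA-ES-BJ. Both A-204 arrays were among the bright values of the table and the other 4 among the dimmest. MGP was higher by 11.47 ± 0.18 than in SK-LMS-1 (limma adjusted p = 0.000736) and by 11.79 ± 0.18 than in VA-ES-BJ (adjusted p = 0.000663). The signals outside A-204 were under the added constant of 11.62, so these sizes depend on it. SORBS2, a cytoskeletal adaptor of muscle and epithelia, followed, with signals of 19238 and 18323 in A-204 and at most 9.57 elsewhere.

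The 25 highest genes included some of secreted peptides and growth factor carriers. PENK encodes proenkephalin, CRH corticotropin-releasing hormone, EDN3 endothelin 3 and SCG2 secretogranin II. CRH had signals of 60536 and 56059 in A-204, against 112 and 47 in SK-LMS-1 and 139.7 and 184 in VA-ES-BJ. PENK stood at 46307 and 45580 in A-204 and at most 97.8 elsewhere, although its other probe set did not share the direction. EDN3 stood at 18026 and 19385 in A-204 and at most 34.6 elsewhere. SCG2 stood at 45458 and 45763 in A-204, against 85.3 and 61.2 in SK-LMS-1 and 143 and 196 in VA-ES-BJ. For all of these the A-204 arrays lay far above the others, without overlap. The neighbouring genes FGFBP1 and FGFBP2, named for proteins that bind fibroblast growth factors, were both in the set. FGFBP1 stood at 25875 and 26522 in A-204 and at most 115 elsewhere. FGFBP2 stood at 41799 and 43826 in A-204 and at most 80.8 elsewhere.

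The rest of the 25 highest genes held DLK1 and PEG3, paternally expressed imprinted genes, MEOX2 and RUNX3, transcription factors of mesoderm and of haematopoietic and skeletal development, and the keratins KRT14 and KRT5. GRIA2 and GABRA5 encode subunits of glutamate and GABA receptors, and UNC5C encodes a netrin receptor of axon guidance. SERPINA3 is a protease inhibitor of the acute phase response, CYP24A1 the vitamin D hydroxylase, HPD and ALDH8A1 enzymes of amino acid breakdown, CEACAM1 an adhesion molecule of epithelia and leukocytes, and RSPO2 an enhancer of WNT signalling. MPPED2 and TMEM30B completed the list. Sizes over the 25 ran from 11.47 for MGP to 7.14 for RSPO2.

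**Figure D2:**
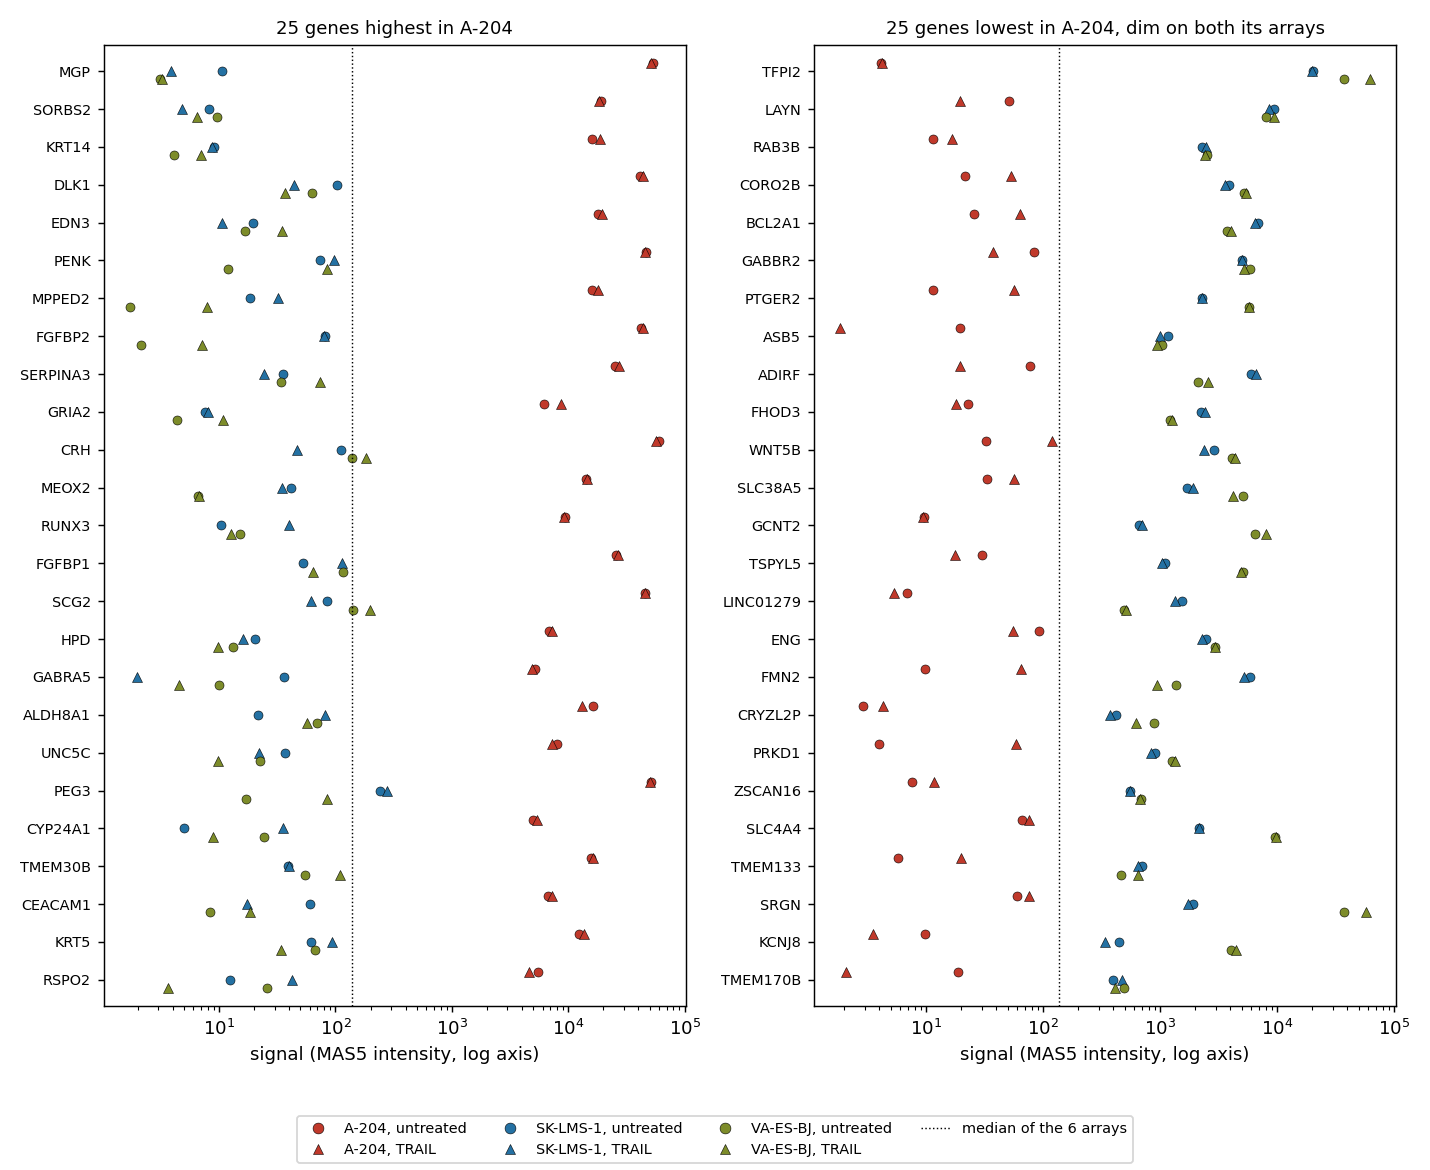
Signal of the 25 genes highest in A-204 (left) and of the 25 lowest that were dim on both A-204 arrays (right), on a log axis. Within each gene's row the lines run from A-204 above to VA-ES-BJ below, circles are untreated and triangles TRAIL arrays, 1 array per point, and the dotted line is the median of the 6 arrays. Among the highest genes nearly all other arrays lie left of the dotted line, with CRH, SCG2 and PEG3 reaching past it in 1 line.

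The label of A-204 was checked against skeletal muscle genes. MYOD1 had signals of 28.6 and 69.3 in A-204, against 14.1 to 89.8 in the other lines, and MYOG 10.2 and 11.5 in A-204, against 15.6 to 31.8. Both were too dim on all arrays to be tested. DES, the muscle intermediate filament gene, stood at 132 and 201 in A-204, against 127 and 176 in SK-LMS-1 and 145 and 109.9 in VA-ES-BJ, so the lines overlapped and no difference passed the test (adjusted p = 0.751 and 0.373). Its sign against SK-LMS-1 turned under 2 other scalings, and its sign against VA-ES-BJ turned without 1 array. The 2 factors that define the labelled cell type were thus dim in A-204. Of 17 skeletal muscle genes tested of 37 listed, RYR1 and TNNC1 were higher and RBM24 was lower, and the list medians of 0.13 and 0.09 were close to the medians of all genes, 0.04 and 0.09, against SK-LMS-1 and VA-ES-BJ in that order. RYR1, the calcium release channel of muscle, had signals of 355 and 517 in A-204, against 26.1 and 20.2 in SK-LMS-1 and 21.6 and 19.8 in VA-ES-BJ. TNNC1, the troponin C of slow and cardiac muscle, had 195 and 171 in A-204 and at most 8.67 elsewhere. Both were over the array median in A-204 alone, so they passed the filter through its arrays and had to be higher. RBM24, a splicing regulator of muscle, stood at 268 and 390.4 in A-204, against 2836 and 2931 in SK-LMS-1 and 7489 and 7685 in VA-ES-BJ.

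Of 15 smooth muscle genes tested, 7 were lower in A-204 than in both lines and 1 was higher, with list medians of -1.07 and -0.68. TAGLN, an actin-bundling protein of smooth muscle, had signals of 271 and 239 in A-204, against 9763 and 10220 in SK-LMS-1 and 4245 and 4119.9 in VA-ES-BJ. It differed by -5.23 ± 0.12 and -3.98 ± 0.12 (adjusted p = 0.000736 and 0.000748). Of its other probe sets 1 of 2 shared this direction, and without probe sets of the _s_at and _x_at kind TAGLN was at 1.16 against VA-ES-BJ. CNN1, calponin of smooth muscle, was dim in A-204 at 17.7 and 21.0, against 661 and 732 in SK-LMS-1 and 162 and 114 in VA-ES-BJ. TPM1, an alpha-tropomyosin, and SMTN, smoothelin, were lower too, by 2.01 and 1.88 at least, as was TAGLN2. A-204 and VA-ES-BJ, neither labelled smooth muscle, thus differed from each other in these genes as well.

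Of 43 epithelial genes listed, 27 were tested, and 10 of the 27 (37.0%) were higher in A-204 than in both lines and 1 was lower, 6 of the 10 by at least 4-fold, with list medians of 1.91 against SK-LMS-1 and 0.69 against VA-ES-BJ. DSP, DSG3 and CDH1 passed the filter through the A-204 arrays alone and so had to differ. CLDN3, CLDN4, CLDN7, ESRP1, GRHL2, RAB25, ST14 and PRSS8, also of epithelial junctions, splicing, transcription and surface proteases, were under the median on both A-204 arrays and were not tested. EPCAM, an epithelial adhesion molecule, had signals of 1915 and 1921 in A-204, against 13.8 and 38 in SK-LMS-1 and 130.5 and 138 in VA-ES-BJ, where it lay near the array median. It was higher by 5.77 ± 0.29 than in SK-LMS-1 (adjusted p = 0.00151) and by 3.73 ± 0.29 than in VA-ES-BJ (adjusted p = 0.00331). DSP, which encodes desmoplakin of the desmosome, had 3862 and 3055 in A-204, against 36.2 and 11.6 in SK-LMS-1 and 46.7 and 25.7 in VA-ES-BJ, so that it was expressed in A-204 and dim in both other lines. The desmosomal cadherin DSG3 (size 4.14), the surface glycoprotein gene CD24 (4.76), MAL2 of apical transport (2.93) and CDH1 were higher as well. CDH1, the epithelial cadherin, was only just over the array median, at 180.5 and 169 in A-204, against 44.7 and 10.5 in SK-LMS-1 and 42.1 and 8.27 in VA-ES-BJ, and its other probe set did not separate the lines, with A-204 at 104 and 7.04. CDH2, the mesenchymal cadherin, was dim at 4.33 and 10.2 in A-204, against 10137 and 9715 in SK-LMS-1 and 112 and 62.9 in VA-ES-BJ, so its difference from VA-ES-BJ rests on dim values.

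Of 8 keratins tested, 2 (25%) were higher and 1 (12.5%) was lower in A-204 than in both lines, against 11.7% and 9.19% of all genes tested. KRT14 and KRT5, the pair that forms the filaments of basal squamous epithelium, were higher in A-204. KRT14 had signals of 15895 and 18605 in A-204 and at most 8.96 elsewhere (9.72 ± 0.13 and 9.97 ± 0.13, adjusted p = 0.000736 and 0.000663). KRT5 had 12279 and 13544 in A-204 and at most 94 elsewhere (size 7.20). KRT14 and KRT5 passed the filter through the A-204 arrays alone and so had to be higher. KRT19, a keratin of simple epithelium, was dim at 9.33 and 14.3 in A-204, against 27.9 and 89.3 in SK-LMS-1 and 16189 and 18439 in VA-ES-BJ. Its call against SK-LMS-1 (-1.44, adjusted p = 0.0384) rests on dim values of both lines and was lost without the agent term. KRT8 lay between the lines, with 2771 and 2618 in A-204, against 339 and 375 in SK-LMS-1 and 16153 and 17987 in VA-ES-BJ. KRT18 did not pass against SK-LMS-1 (adjusted p = 0.55). VIM, the mesenchymal intermediate filament gene, was among the brightest genes in every line, at 48384 and 48841 in A-204, against 38778 and 40469 in SK-LMS-1 and 36708 and 59815 in VA-ES-BJ, and passed in neither comparison (adjusted p = 0.343 and 0.868). Its sign against VA-ES-BJ turned under other scalings.

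After KRT14 and KRT5 had been seen, further genes of basal and squamous epithelium were gathered, so the count is a description of a list chosen with values known. Of 48 genes listed, 30 were tested. Of the 30, 20 were higher in A-204 and none was lower, with list medians of 3.68 and 3.41. SFN, which encodes the epithelial 14-3-3 protein stratifin, stood at 39758 and 43135 in A-204, against 252 and 292 in SK-LMS-1 and 635 and 664 in VA-ES-BJ. CDH3, placental cadherin and the genomic neighbour of CDH1, had 1821 and 1747 in A-204 and at most 51.4 elsewhere. ITGB4, the hemidesmosomal integrin, SERPINB5, maspin, PADI3, a citrullinating enzyme of hair and epidermis, TRIM29, DMKN and S100A2 belonged to the same group. SERPINB5 was at 1025 and 991 in A-204 and at most 20.4 elsewhere, though its other probe set did not share the direction. These genes were bright in A-204 and mostly under the array median in both other lines. Those under it on all 4 other arrays passed the filter through the A-204 arrays alone and so had to be higher. Other members of the list were under the median on both A-204 arrays and were not tested. They included IVL, LORICRIN, SPRR1B, SPRR3, S100A7, S100A9, KRTDAP, SERPINB4 and SERPINB13.

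Neural genes formed the next group. Of 37 tested of 64 listed, 14 (37.8%) were higher in A-204 than in both lines and 3 were lower, 12 of the 14 by at least 4-fold, with list medians of 1.46 and 1.57. GRIA2 had signals of 6217 and 8583 in A-204 and at most 10.9 elsewhere. The transcription factors of neural precursors ZIC1, LHX2 and SOX2 were all higher. ZIC1 had 3051 and 3276 in A-204, against 20.2 and 8.08 in SK-LMS-1 and 3.35 and 4.5 in VA-ES-BJ, and SOX2 had 1088 on both A-204 arrays and at most 48.6 elsewhere. GRIA2, ZIC1 and SOX2 passed the filter through the A-204 arrays alone and so had to be higher. MAP2, a dendritic microtubule protein, stood at 5762 and 5511 in A-204, against 138 and 108 in SK-LMS-1 and 374 and 403 in VA-ES-BJ. PCDH10, NCAM2 and INA, genes of neural adhesion and of neuronal filaments, were higher by 3.76, 3.12 and 2.20. The list was not higher throughout, because SYT1, a sensor of synaptic vesicle release, was lower by at least 1.85, CRMP1 by 1.12 and SOX4 by 0.64. CHGA and SYP, markers of neuroendocrine cells, were not tested, with at most 113 and 35.1 on any A-204 array and probe set. Other untested members under the median on both A-204 arrays included DCX, STMN2, ELAVL3, ELAVL4, SOX10, SOX11, GFAP, OLIG2 and S100B.

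ZNF804A, a zinc finger gene of the nervous system proposed as a marker of A-204, differed by 4-fold only from VA-ES-BJ. Its signals were 3121 and 3335 in A-204, against 2314 and 2304 in SK-LMS-1 and 65.4 and 65.2 in VA-ES-BJ. ZNF804A was higher by 0.48 ± 0.10 than in SK-LMS-1 (limma adjusted p = 0.0303) and by 5.40 ± 0.10 than in VA-ES-BJ (adjusted p = 0.000685), where it was dim and the size depends on the added constant. On the arrays with taurolidine it stood at 198 and 210.1 in A-204, against 1607 and 1612 in SK-LMS-1 and 59.8 and 46.6 in VA-ES-BJ, so that its order against SK-LMS-1 turned round there.

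**Figure D3:**
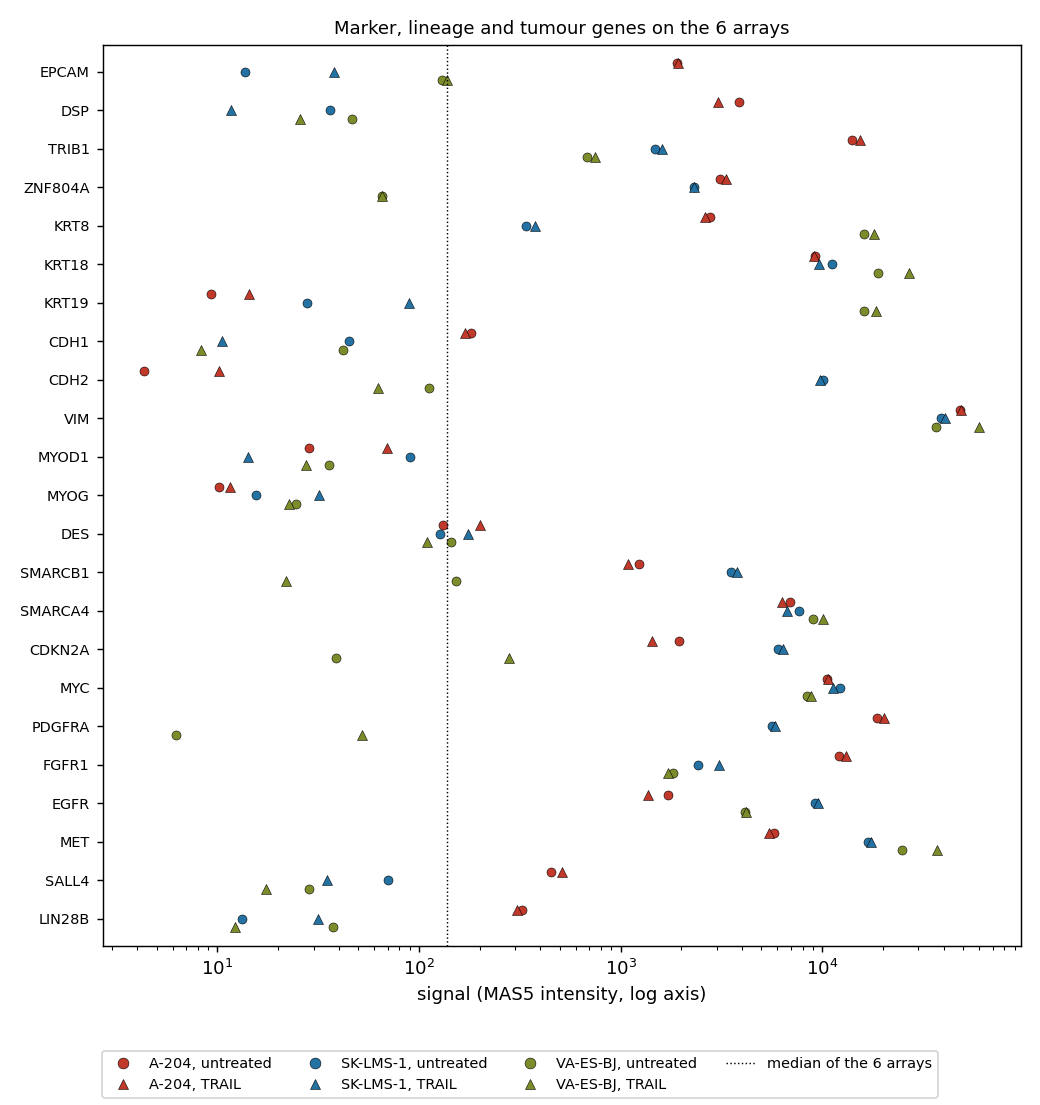
Signal of the marker, lineage and tumour genes on the 6 arrays, on a log axis, drawn as in the plot of the highest and lowest genes, with 1 array per point. DSP, SALL4 and LIN28B stand over the array median (dotted line) in A-204 alone, while MYOD1 and MYOG lie under it on all 6 arrays.

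Developmental transcription factors were the largest list, and 37 of 90 tested (41.1%) were higher in A-204 than in both lines, 22 of them by at least 4-fold, while 7 were lower. The list medians were 0.72 and 1.42. MEOX2, which acts in somites and limb muscle precursors, had signals of 14256 and 14391 in A-204, against 41.2 and 35 in SK-LMS-1 and 6.53 and 6.73 in VA-ES-BJ. RUNX3 had 9400.3 and 9215 in A-204 and at most 39.6 elsewhere. Both were bright in A-204 and under the array median on the other 4 arrays, so they passed the filter through A-204 alone and had to be higher. The same held for PITX1 and SOX6. Factors of head, heart and limb patterning were among the rest: PITX1 (size 4.75), NKX2-5 (4.30), TBX1 (4.10), BARX1 (3.90), DLX1 (3.34), TBX2 (3.25) and DLX2 (2.79). Iroquois genes were represented by IRX2, IRX5 and IRX4, and SOX genes by SOX5, SOX6, SOX7 and SOX8. Of the other probe sets of SOX6, 6 of 7 shared its direction. Without the untreated A-204 array the probe set used here did not pass the filter, and another stood for SOX6 at -0.04 against VA-ES-BJ. SNAI2, a repressor of epithelial genes in mesenchymal and neural crest cells, was bright, at 20100 and 19279 in A-204, against 3552 and 3518 in SK-LMS-1 and 12.2 and 20 in VA-ES-BJ. ZEB1 and ZEB2, other repressors of that kind, were lower in A-204, by at least 1.35 and 2.27. ZEB2 was dim at 86.1 and 61 in A-204, against 1819.6 and 1689 in SK-LMS-1 and 496 and 312 in VA-ES-BJ. HOX genes, which pattern the body axis, set A-204 apart little: of 28 tested HOXC4 and HOXC9 were higher and HOXB3 lower, none by 4-fold.

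Of 33 genes of pluripotent and fetal cells listed, 19 were tested, and 9 of the 19 (47.4%) were higher and 2 lower, with medians of 0.60 and 0.77. NANOG, LIN28A, DPPA4 and PRDM14 were under the median on both A-204 arrays, NANOG at no more than 26.9, and were not tested. DLK1, a Notch-like protein of fetal and adipocyte precursors, had signals of 41184 and 43972 in A-204, against 104 and 44.2 in SK-LMS-1 and 62.4 and 36.6 in VA-ES-BJ. SALL4, a stem cell transcription factor, had 452 and 515 in A-204, against 70.3 and 35 in SK-LMS-1 and 28.6 and 17.3 in VA-ES-BJ. ZFP42 and LIN28B, an inhibitor of let-7 maturation, stood at similar modest levels, LIN28B at 325 and 306 in A-204 and at most 37.4 elsewhere. DLK1, SALL4 and LIN28B passed the filter through the A-204 arrays alone and so had to be higher. On the taurolidine arrays LIN28B stood at 93.8 and 21.8 in A-204, against 38.4 and 2.6 in SK-LMS-1 and 25.7 and 66.6 in VA-ES-BJ, and was not called. IGF2BP3, an oncofetal RNA-binding protein, was higher by at least 1.03, and IGF2BP1 was not higher, at 201 and 109 in A-204, against 249 and 335 in SK-LMS-1 and 927 and 893 in VA-ES-BJ. PODXL, a sialomucin of podocytes and stem cells, went the other way, at 259 and 211 in A-204, against 6027 and 5712 in SK-LMS-1 and 9653 and 12350 in VA-ES-BJ. Of 6 cancer-testis antigens tested of 36 listed, MAGEA4 alone passed, at 5889.9 and 5286 in A-204 and at most 53.5 elsewhere. MAGEA4 too passed the filter through the A-204 arrays alone and so had to be higher.

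Of 40 receptor tyrosine kinases tested, 6 (15%) were higher and 6 (15%) lower. That is near the 11.7% and 9.19% of all genes tested, so the counts do not set the family apart. FGFR1, a receptor for fibroblast growth factors, had signals of 12132 and 13065 in A-204, against 2419 and 3075 in SK-LMS-1 and 1813 and 1718 in VA-ES-BJ. It was higher by 2.20 ± 0.15 and 2.83 ± 0.15 (adjusted p = 0.00248 and 0.00155), with all 6 other probe sets in the same direction. FGFR3, of the same family, had 3110.1 and 2496 in A-204, against 28.9 and 79.7 in SK-LMS-1 and 149 and 254 in VA-ES-BJ. ROR2, a WNT5A receptor, and the ephrin receptor gene EPHA7 were higher, while EPHA5 was lower and dim in A-204. ROR2 and EPHA7 passed the filter through the A-204 arrays alone and so had to be higher. PDGFRA, the alpha receptor of platelet-derived growth factor, had 18761 and 20227 in A-204, against 5626 and 5837 in SK-LMS-1 and 6.23 and 51.9 in VA-ES-BJ. Its difference from SK-LMS-1, 1.76 ± 0.53, did not pass (adjusted p = 0.0654), and that from VA-ES-BJ, 9.18, did (adjusted p = 0.00184). EGFR and MET, receptors of epidermal and hepatocyte growth factors, were lower in A-204. EGFR had 1724 and 1363 in A-204, against 9162 and 9576 in SK-LMS-1 and 4157 and 4171 in VA-ES-BJ, and MET 5738 and 5435 in A-204, against 16851 and 17378 in SK-LMS-1 and 24960 and 37227 in VA-ES-BJ. For both receptors the A-204 arrays lay below all others.

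Secreted growth factors were lower more often, 9 of 34 (26.5%) against 2 higher, with medians of -0.59 and -0.81. FGF5 was dim in A-204, at 11.5 and 7.56, against 5194 and 5887 in SK-LMS-1 and 366 and 423 in VA-ES-BJ. HBEGF, a ligand of EGFR, had 382 and 404 in A-204, against 3034 and 2801 in SK-LMS-1 and 9450.1 and 12386 in VA-ES-BJ. BDNF (size -3.17), VEGFC (-2.29) and CCN1 (-2.17) were lower as well. Higher were FGF19 and ARTN, each by less than 4-fold.

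In the WNT pathway 4 of 31 genes (12.9%) were higher and 5 (16.1%) lower, against 11.7% and 9.19% of all genes tested. The ligand gene WNT5B was dim at 32.8 and 119 in A-204, against 2884 and 2393 in SK-LMS-1 and 4140 and 4351 in VA-ES-BJ, and FZD7, of the WNT receptor family, was lower by at least 2.49. TCF7L1, a nuclear partner of beta-catenin, and the co-receptor gene KREMEN1 were higher by at least 1.44 and 1.81. Hedgehog genes were higher in 3 of 13 cases (23.1%, against 11.7% of all genes tested) and lower in none. PTCH1, receptor and target of the pathway, had 6255 and 6456 in A-204, against 148 and 176 in SK-LMS-1 and 711 and 720.4 in VA-ES-BJ, and the ligand gene DHH had 262 and 331 in A-204, against 35.1 and 74.4 in SK-LMS-1 and 102 and 77.7 in VA-ES-BJ. BOC, a co-receptor, was higher by at least 0.97. DHH passed the filter through the A-204 arrays alone and so had to be higher.

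BMP and TGF-beta genes moved both ways, 6 of 33 higher (all by at least 4-fold) and 11 lower. The ligands BMP4, BMP6, BMP7 and TGFB3 were higher, as were BAMBI, a decoy receptor, and SMAD6, an inhibitor of BMP signalling. The other probe set of TGFB3 did not share its direction. BMP7 passed the filter through the A-204 arrays alone and so had to be higher. On the taurolidine arrays BMP7 kept its direction but was not called against both lines. BAMBI had 13492 and 13519 in A-204, against 214 and 116 in SK-LMS-1 and at most 426 in VA-ES-BJ. BMP6 had 10028 and 10190 in A-204, against 344 and 278 in SK-LMS-1 and 2253 and 1720.2 in VA-ES-BJ. ENG, endoglin, a co-receptor of endothelium and mesenchyme, was dim at 91.8 and 55.7 in A-204, against 2491 and 2269.6 in SK-LMS-1 and 2939 and 2963 in VA-ES-BJ. SMAD7, an inhibitor of TGF-beta signalling, was lower by at least 2.68, and the antagonist and activin genes NOG, GREM1 and INHBA were lower by 1.69, 1.99 and 1.81 at least. GREM1 was at 8.62 and 4.03 in A-204 and at 17583 and 15718 in SK-LMS-1, but at 59.6 and 58.3 in VA-ES-BJ, so that only its difference from SK-LMS-1 is between bright and dim values. BMP4 did not keep its order with taurolidine, where it stood at 34.1 and 111 in A-204, against 166 and 85.8 in SK-LMS-1 and 11.1 and 11.8 in VA-ES-BJ.

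Matrix genes were called in both directions. Of 42 tested, 7 were higher and 11 lower, 8 of the 11 by at least 4-fold. COL6A3, a chain of type VI collagen of fibroblast matrix, had 284 and 278 in A-204, against 23073 and 21059 in SK-LMS-1 and 25685 and 34087 in VA-ES-BJ (-6.24 ± 0.18 and -6.66 ± 0.18, adjusted p = 0.000846 and 0.000748). COL1A1, COL8A1, VCAN, LOXL1 and BGN, other matrix genes, were lower as well, COL1A1 at 1037 and 701 in A-204, against 34685 and 31399 in SK-LMS-1 and 6511 and 6526 in VA-ES-BJ. Among those higher were COL11A1, a cartilage collagen, with 49867 and 49320 in A-204, against 741 and 640.0 in SK-LMS-1 and 4061 and 3536 in VA-ES-BJ, and COL5A1.

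With MGP and COL11A1 in view, genes of cartilage were gathered, again with values known. Of 34 listed, 26 were tested. Of the 26, 17 were higher in A-204 and none lower, 14 by at least 4-fold, with medians of 3.06 and 3.17. COL9A1, COMP, CHAD, CNMD, EPYC, FRZB and SNORC were under the median on both A-204 arrays and were not tested. MIA, a protein secreted by chondrocytes and melanoma cells, had 12652 and 13120 in A-204, against 39.4 and 84.4 in SK-LMS-1 and 124 and 62 in VA-ES-BJ. ITGA10, a collagen receptor of chondrocytes, had 12254 and 12142 in A-204 and at most 234 elsewhere, and SCRG1 had 6788 and 6952 in A-204 and at most 105 elsewhere. MIA and SCRG1 passed the filter through the A-204 arrays alone and so had to be higher. COL9A2 and COL9A3, chains of type IX collagen, and the chondrogenic factors SOX5 and SOX6 were in the same set. SOX9, the factor that acts with them, was bright in all lines, at 16876 and 16231 in A-204, against 3645 and 3715 in SK-LMS-1 and 8490.2 and 8281 in VA-ES-BJ. COL2A1 and ACAN, which make up the bulk of cartilage matrix, were higher by less than 4-fold and at low levels, COL2A1 at 164 and 190.3 in A-204, against 74.5 and 105 in SK-LMS-1 and 76.5 and 63.7 in VA-ES-BJ.

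Among the lowest genes, TFPI2, a protease inhibitor of the matrix, led by a wide margin. Its signals were 4.09 and 4.19 in A-204, against 20178 and 19842 in SK-LMS-1 and 37469 and 62125 in VA-ES-BJ, a difference of -10.31 ± 0.24 and -11.58 ± 0.24 (adjusted p = 0.000754 and 0.000685). GNG11, its genomic neighbour, was in the lower set too. LAYN, a hyaluronan receptor, had 51 and 19.7 in A-204, against 9384 and 8623 in SK-LMS-1 and 8116 and 9357 in VA-ES-BJ. BCL2A1, an inhibitor of apoptosis of the BCL2 family, had 25.7 and 64 in A-204, against 6826 and 6447 in SK-LMS-1 and 3778 and 4047 in VA-ES-BJ. RAB3B of vesicle traffic, CORO2B of the actin cytoskeleton, the GABA receptor gene GABBR2 and the prostaglandin receptor gene PTGER2 were among the next in size of the genes dim in A-204. SRGN, the proteoglycan core protein serglycin, had 60.4 and 75.8 in A-204, against 1931 and 1739 in SK-LMS-1 and 37622 and 58010 in VA-ES-BJ. All 25 lay on both A-204 arrays below the other 4 arrays, with sizes from -10.31 for TFPI2 to -4.45 for TMEM170B.

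CCN2, which encodes connective tissue growth factor and is a familiar target of the co-activator YAP and its partner TEAD, had 409 and 332 in A-204, against 18958 and 18043 in SK-LMS-1 and 36468 and 56828 in VA-ES-BJ (-5.61 ± 0.27 and -6.90 ± 0.27, adjusted p = 0.00138 and 0.000955). A list of YAP and TEAD targets drawn up after this had been seen held 27 tested genes, of which 11 were lower and 2 were higher, with medians of -0.71 and -0.48. CCN1 had 6772 and 7426 in A-204, against 35253 and 36184 in SK-LMS-1 and 27097 and 37544 in VA-ES-BJ. AMOTL1, AMOTL2, CRIM1 and RBMS3 were lower with them, AMOTL1 by at least 2.78, while FOXF2 and F3 were higher.

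Stretches before the start of TFPI2, CCN2 and SFN are shown as members of the lowest genes, the YAP and TEAD targets and the basal and squamous genes that hold a motif searched. They are the 200 bases before the annotated start, 5′ to 3′ on the strand of the gene, from RefSeq on GRCh38.p14. Capitals mark GGAATG, the motif bound by TEAD factors, in CCN2 and TGANTCA, the motif bound by AP-1, in TFPI2 and SFN, on either strand.
TFPI2, chr7:93890754-93890953, minus strand: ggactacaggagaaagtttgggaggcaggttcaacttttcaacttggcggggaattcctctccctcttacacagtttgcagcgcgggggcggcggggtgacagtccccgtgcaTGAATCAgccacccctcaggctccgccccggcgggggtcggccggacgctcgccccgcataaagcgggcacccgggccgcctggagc
CCN2, chr6:131951373-131951572, minus strand: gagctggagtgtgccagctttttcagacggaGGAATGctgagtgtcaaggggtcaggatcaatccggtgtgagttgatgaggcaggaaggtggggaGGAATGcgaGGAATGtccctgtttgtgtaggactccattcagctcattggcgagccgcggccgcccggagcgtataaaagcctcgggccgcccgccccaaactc
SFN, chr1:26862949-26863148, plus strand: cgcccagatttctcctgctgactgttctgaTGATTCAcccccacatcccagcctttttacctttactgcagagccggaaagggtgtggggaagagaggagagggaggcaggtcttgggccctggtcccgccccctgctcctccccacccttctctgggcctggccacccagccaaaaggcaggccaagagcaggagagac

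CCN2 holds GGAATG at 3 places in this stretch, and TFPI2 and SFN hold TGANTCA at 1 place each. In windows of 250 bases before the start, 13.3% of the tested genes with a promoter in the table (11175 genes) held GGAATG on either strand, against 16.2% of 346 higher and 22% of 177 lower genes. TGANTCA was in 6.34% of the tested genes, in 10.1% of the higher and in 14.1% of the lower genes. Among the basal and squamous genes higher in A-204, 6 of the 11 with a promoter in the table held TGANTCA, where 8 of 20 did over all tested genes of that list. Among the lower YAP and TEAD targets 3 of 7 held GGAATG, where 9 of 20 did over all tested genes of that list. A match is a description of the sequence and not evidence of binding.

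Genes of tumour suppression and the cell cycle set A-204 apart little. Of 41 tested, 1 was higher, DAPK1, and 2 were lower, RB1 and CCND2. RB1 differed by -0.52 from SK-LMS-1 (limma adjusted p = 0.0445), a call lost without the agent term, and it was not called in both comparisons on the taurolidine arrays. SMARCB1 had signals of 1235 and 1090.2 in A-204, against 3530.1 and 3795 in SK-LMS-1 and 152 and 21.9 in VA-ES-BJ. A-204 thus lay between the lines, with a difference from SK-LMS-1 of -1.65 ± 0.68, which did not pass (adjusted p = 0.129), and 3.98 ± 0.68 above VA-ES-BJ (adjusted p = 0.0178). The other probe sets of SMARCB1 were near the array median or under it in every line, and without probe sets of the _s_at kind the difference from SK-LMS-1 was 0.67. A transcript signal does not show whether protein is made. SMARCA4 and SMARCA2, the catalytic subunits of the same complex, did not pass in either comparison. CDKN2A, a cell cycle inhibitor, also lay between the lines, at 1941 and 1430 in A-204, against 6063 and 6405 in SK-LMS-1 and 38.5 and 281 in VA-ES-BJ. MYC did not pass (adjusted p = 0.358 and 0.104) and HMGA2 and CCND1 differed from VA-ES-BJ alone.

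**Figure D4:**
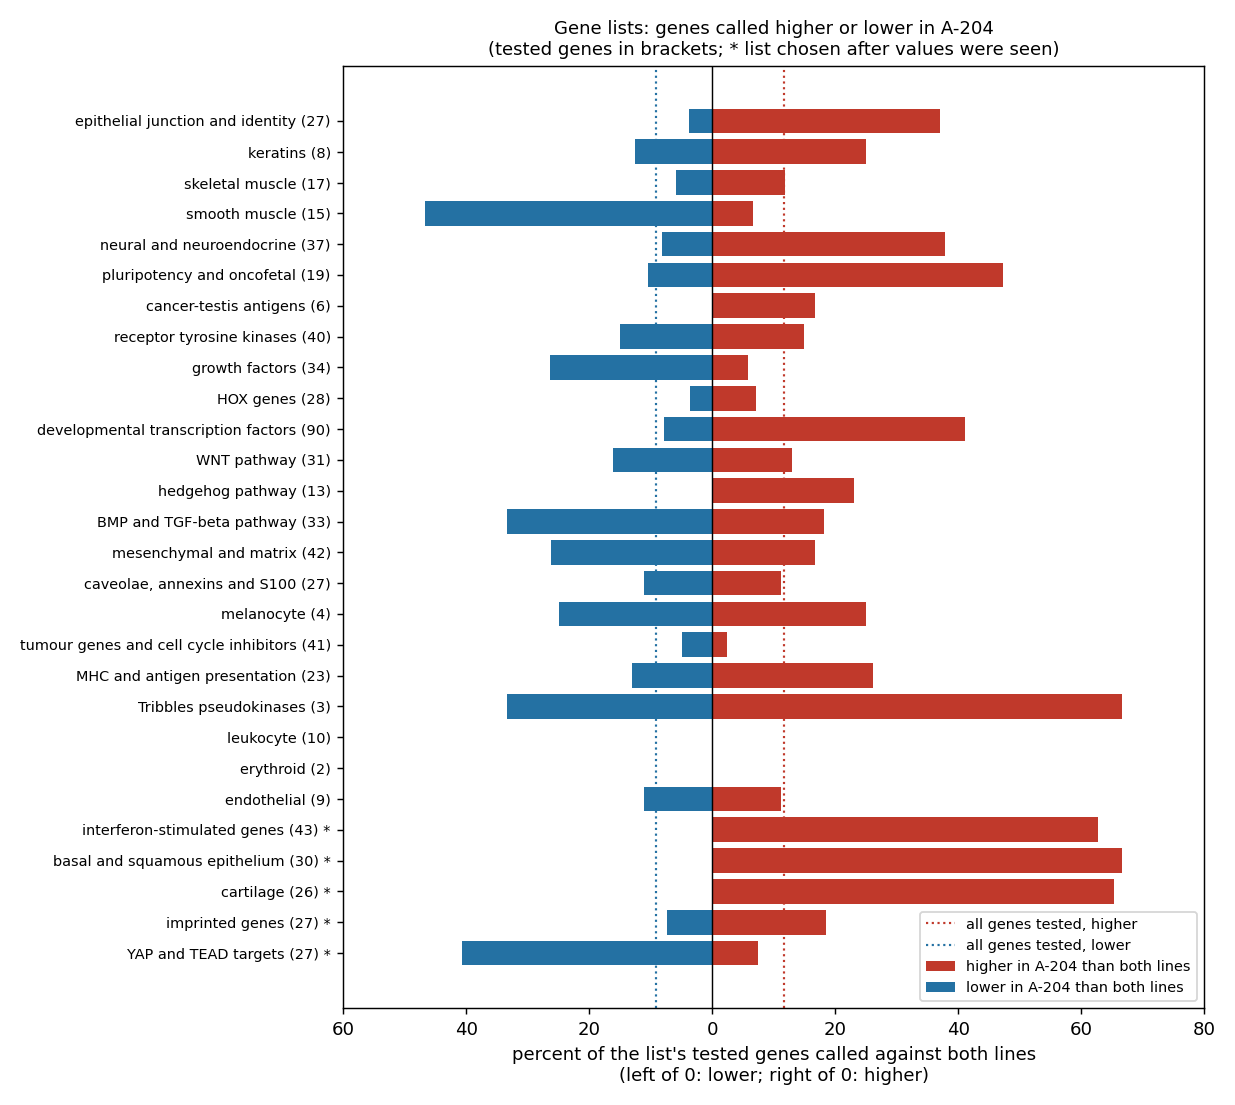
Percent of the tested genes of each list that were higher (red, right of 0) or lower (blue, left of 0) in A-204 than in both other lines, at an adjusted p under 0.05 in both comparisons. Dotted lines give the percent over all genes tested, 11.7 higher and 9.19 lower, numbers in brackets are the tested genes of a list, and stars mark lists chosen after values had been seen.

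Genes of antigen presentation were higher in 6 of 23 cases (26.1%) and lower in 3 (13%), against 11.7% and 9.19% of all genes tested. HLA-DRA, a class II chain, stood at 294 and 285 in A-204, against 68.8 and 12.2 in SK-LMS-1 and 36 and 48.7 in VA-ES-BJ, and PSMB9, an immunoproteasome subunit, at 10585 and 11028 in A-204, against 1997 on both arrays of SK-LMS-1 and 4663 and 4615 in VA-ES-BJ. CD274, which encodes the checkpoint ligand PD-L1, was lower, at 180.4 and 135 in A-204, against 2208 and 2355 in SK-LMS-1 and 1255 and 1191 in VA-ES-BJ, and its neighbour PDCD1LG2, which encodes PD-L2, was in the lower set. HLA-DRA passed the filter through the A-204 arrays alone and so had to be higher. The HLA genes are similar in sequence, as are keratins and MAGE genes, and cross-detection by their probe sets was not tested.

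Interferon-stimulated genes, a list added after IFIT genes had been seen among the higher set, were higher in 27 of 43 cases and lower in none, 12 by at least 4-fold, with medians of 2.12 and 1.88. They encode antiviral effectors induced by interferons. BST2, tetherin, had 1585 and 1353 in A-204, against 35.6 and 14.9 in SK-LMS-1 and 6.07 and 6.38 in VA-ES-BJ. OAS2, an activator of RNase L, had 3311 and 2832 in A-204 and at most 109 elsewhere. BST2 and OAS2 passed the filter through the A-204 arrays alone and so had to be higher. IFIT1 and ISG15 were expressed in all lines and brightest in A-204, IFIT1 at 5833 and 5826 in A-204, against 740.4 and 782 in SK-LMS-1 and 1031 and 1009.6 in VA-ES-BJ, and ISG15 at 11964 and 11001 in A-204, against 2035 and 1781 in SK-LMS-1 and 1129.6 and 1162 in VA-ES-BJ. RIGI, a sensor of viral RNA, was higher by at least 1.03.

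The sequences before the starts of 3 of these genes are given in the same way, with the core of the interferon-stimulated response element (GAAA, any 2 bases, GAAA, on either strand) in capitals. In ISG15 and BST2 the matches overlap.
IFIT1, chr10:89392423-89392622, plus strand: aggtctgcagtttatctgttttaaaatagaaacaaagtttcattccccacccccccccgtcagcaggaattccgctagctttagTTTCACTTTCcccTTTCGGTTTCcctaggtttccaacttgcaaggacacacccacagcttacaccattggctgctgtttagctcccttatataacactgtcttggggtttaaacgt
ISG15, chr1:1013297-1013496, plus strand: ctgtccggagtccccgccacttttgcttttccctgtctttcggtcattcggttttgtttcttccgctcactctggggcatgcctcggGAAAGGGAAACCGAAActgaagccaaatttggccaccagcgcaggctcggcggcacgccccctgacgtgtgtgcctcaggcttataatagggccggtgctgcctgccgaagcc
BST2, chr19:17405631-17405830, minus strand: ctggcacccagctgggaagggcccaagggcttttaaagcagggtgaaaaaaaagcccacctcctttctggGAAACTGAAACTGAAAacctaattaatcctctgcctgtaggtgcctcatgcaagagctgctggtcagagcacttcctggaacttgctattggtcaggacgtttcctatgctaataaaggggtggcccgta

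Each of the 3 stretches holds the motif at 2 places. In the windows of 250 bases it was found in 16 of the 22 interferon-stimulated genes that were higher in A-204 and had a promoter in the table, in 24 of all 34 tested with a promoter, and in 3.28% of all tested genes. The share among the genes that were higher was thus close to that of the whole list.

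TRIB1, a pseudokinase gene of the Tribbles family that directs protein degradation, was in the higher set, with signals of 14051 and 15458 in A-204, against 1479 and 1598 in SK-LMS-1 and 684 and 749 in VA-ES-BJ. It was higher by 3.25 ± 0.10 and 4.34 ± 0.10 (adjusted p = 0.000891 and 0.000731). On the taurolidine arrays it stood at 2287 and 2805 in A-204, against 6983 and 6793 in SK-LMS-1 and 836 and 770.2 in VA-ES-BJ, so that A-204 was no longer the brightest line. TRIB2 was higher by at least 1.77 and TRIB3 lower by at least 1.05, so all 3 family members differed, in both directions.

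Of 10 leukocyte and 2 erythroid genes tested, none was called in both comparisons. The summed signal of the leukocyte list was 2383 and 2492 in A-204, against 3861 and 4098 in SK-LMS-1 and 2768 and 3111 in VA-ES-BJ. Of 9 endothelial genes, ERG, a transcription factor, was higher, at 1333 and 1266 in A-204 and at most 45.6 elsewhere, and ENG was lower. Of 4 melanocyte genes, TYRP1, an enzyme of pigment synthesis, was higher, at 704 and 988 in A-204 and at most 49.6 elsewhere, and MITF, the factor that drives that lineage, was lower, at 96.8 and 89.1 in A-204, against 1596 and 1501 in SK-LMS-1 and 4339 and 3775 in VA-ES-BJ. Caveolar, annexin and S100 genes gave 3 higher and 3 lower of 27 (11.1% each), with S100A2 and S100P over 4-fold higher. These shares are near those of all genes tested, 11.7% and 9.19%. ERG, TYRP1 and S100P passed the filter through the A-204 arrays alone and so had to be higher.

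The differences were looked up on the 6 arrays with taurolidine, 2 for each line, which had no part in the choice of genes although they come from the same lines. There 423 of the 473 higher genes were again called higher than in both lines, against 12.6% of all genes tested, and 218 of the 237 lower genes were again called lower, against 12%. At least 4-fold differences from both lines were kept by 374 and 200. Direction was kept against both lines by 471 and 234. The exceptions were TRIB1 and BMP4 among the higher genes and LINC01664, LNROP and SYT16, all dim in A-204, among the lower ones. Genes with several probe sets allowed a second look on the same arrays: 424 of 508 further probe sets of the higher genes and 314 of 373 of the lower genes had the same direction against both lines.

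**Figure D5:**
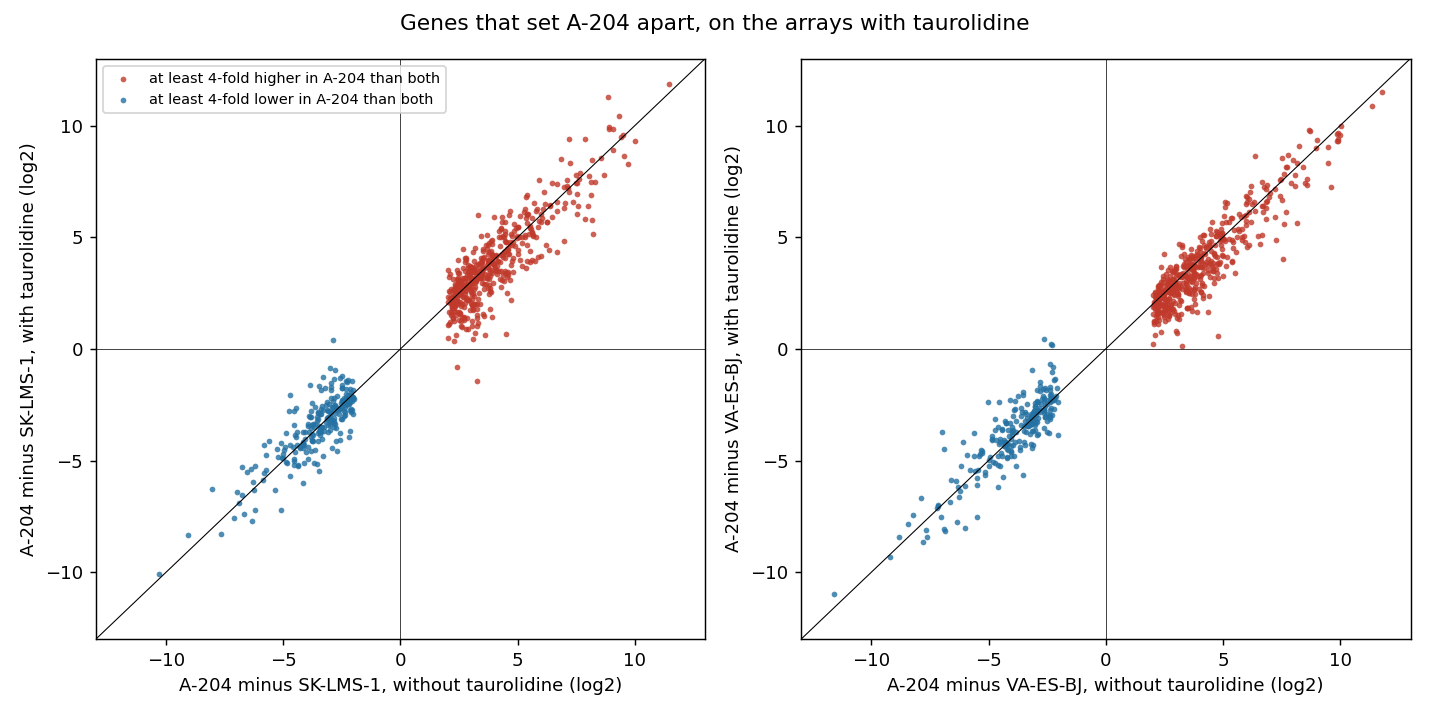
Differences of A-204 from SK-LMS-1 (left) and from VA-ES-BJ (right) for the 473 higher (red) and 237 lower (blue) genes, in log2 units, on the arrays without taurolidine (horizontal) and with it (vertical). The diagonal marks equal differences. Most genes lie near it, and a few cross 0, TRIB1 and BMP4 among the red points.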

How the data were processed

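The authors deposited 1 table of array intensity for 54675 probe sets of a human Affymetrix array, per the file headers. MAS5 is named per the submitters' processing notes, while its version and any detection calls were not in the sources used here. The method scales each array to a common mean, so a change in total messenger RNA per cell is not visible. The trimmed means of the arrays were 999.8 to 999.9, and no further normalisation was applied.

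The platform annotation gave 41091 probe sets 1 gene, 1801 several and 11777 none. Probe sets over the median of the 6 arrays on at least 2 arrays were kept, and the brightest stood for its gene, leaving 13879 genes. Values entered as log2(value + 11.62), where the constant is the 10th percentile. A linear model with cell line and agent was fitted (limma 3.58.1, R 4.3.3), leaving 2 residual and 1.78 prior degrees of freedom. It was tested on simulated data. The agent term pairs arrays of equal treatment.

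The text names the 25 highest genes, the 25 lowest that were dim, up to 5 called genes per list, and 28 genes chosen singly. Genes named beyond these, and 5 of 28 lists, were chosen after their values were seen. The members and all lists were chosen with earlier results of these data known. The 23 other lists held 819 entries, of which 551 were tested. Sex-linked marker genes are not reported here. Alternatives are given in the closing section.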

Additional observations from a re-analysis of the deposited data

How the results depend on the processing

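The 473 higher and 237 lower genes depended mainly on the constant, the filter and the size limit. They numbered 274 and 123 with the constant set to the array median, and 932 and 639 with a 2-fold limit, which by construction holds all of the main sets. Requiring 3 arrays over the median left 212 higher genes, since a gene bright in A-204 alone cannot pass. Leaving out each array in turn gave 173 to 462 higher and 213 to 265 lower genes, and 2645 to 5499 genes called against SK-LMS-1 and 2421 to 5577 against VA-ES-BJ, where all arrays together gave 6171 and 6142. Without the untreated A-204 array the higher genes were 210 and without the TRAIL one 173. With genes filtered on all 6 arrays, an alternative chosen after seeing the data, they were 412 and 363, with 368 and 348 shared with the 473. The calls against SK-LMS-1 were 3560 and 3406 without its untreated and TRAIL array, and those against VA-ES-BJ 3220 and 2946. Dropping the agent term, quantile normalisation, equal array medians, a constant of 1, no filter, the mean of probe sets, single-contrast fits, an intensity trend and all 12 arrays kept every one of these counts within 1.5 times. Without the agent term, which pairs arrays of equal treatment, the calls were 6510 against SK-LMS-1 and 6506 against VA-ES-BJ, with 475 higher and 240 lower genes. Of 5300 values of the 140 named genes under 20 alternatives, 5029 kept direction and call, 207 lost the call, 43 gained it and 21 turned in direction. Leaving out 1 array gave ranges of -0.15 to 0.39 for DES, -0.41 to 0.06 for KRT18 and -0.15 to 0.01 for HMGA2 against SK-LMS-1, and of -0.09 to 0.78 for DES, -0.28 to 0.39 for VIM and -0.04 to 7.13 for SOX6 against VA-ES-BJ. DES against SK-LMS-1 was -0.01 with quantile normalisation, -0.02 with equal medians, -0.05 over all 12 arrays and without the untreated SK-LMS-1 array, and -0.15 without the A-204 TRAIL array, and -0.09 against VA-ES-BJ without its TRAIL array. VIM against VA-ES-BJ was -0.08 and -0.06 under those scalings, -0.13 without the untreated A-204 array and -0.28 without the untreated VA-ES-BJ array. SMARCA4 and IGF2BP1 were at 0.15 and 0.43 against SK-LMS-1 with the mean of probe sets. SMARCB1 was at 0.67 against SK-LMS-1 and TAGLN at 1.16 against VA-ES-BJ without _x_at and _s_at probe sets. Over all 12 arrays ZNF804A was at -1.21 and HMGA2 at 0.21 against SK-LMS-1. Without the untreated A-204 array SOX6 was at -0.04 against VA-ES-BJ, and without the untreated SK-LMS-1 array KRT18 and HMGA2 were at 0.06 and 0.01 against SK-LMS-1. Where SOX6, SMARCB1 and TAGLN turned, another probe set stood for the gene than in the main fit. The cause of the other turns was not tested. Signals under the array median limit the sizes given for dim genes, and 2 arrays per line limit the precision.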

Other observations

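Most tested members of a list of imprinted genes, chosen after DLK1 and PEG3 had been seen, were not called against both lines. Of 27 tested, 5 (18.5%) were higher than in both lines and 2 (7.41%) were lower, against 11.7% and 9.19% of all genes tested. The list medians were 0.16 and 0.66, where those of all genes were 0.04 and 0.09. IGF2 and H19 had no probe set given to 1 gene alone and were not tested. PEG3 had signals of 50861 and 50017 in A-204, against 239.9 and 276 in SK-LMS-1 and 17 and 85 in VA-ES-BJ. MEST, a paternally expressed hydrolase-like gene, had 2084 and 2216 in A-204, against 69.8 and 94.6 in SK-LMS-1 and 837 and 851 in VA-ES-BJ. ATP10A and DIRAS3 were the other higher members, and RB1 and GRB10 the lower ones.

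Some of the genes that set A-204 apart are neighbours in the genome. Among 13820 pairs of tested genes next to each other, 49 had both in the higher set, 26 had both in the lower set and 6 had 1 in each. Over all genes tested, 3.41% were in the higher set and 1.71% in the lower. How many such pairs unrelated positions would give was not tested. Pairs in the higher set included DLX1 with DLX2, FGFBP1 with FGFBP2, IRX4 with IRX2, DMRT3 with DMRT2, CDH3 with CDH1, IL1A with IL1B, and DGKB, MEOX2 and SOSTDC1 in a row. Pairs in the lower set included TFPI2 with GNG11, CD274 with PDCD1LG2, CCN2 with MOXD1, and DDAH1 with CCN1. Some pairs, such as PEG3 with PEG3-AS1, are a gene and its antisense transcript.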
